A study of Mus musculus with 7 samples.

Results

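The enzymes that hydroxylate and cross-link collagen were followed in whole liver of C57BL/6 mice after 30 weeks of Western diet. The group comprises 10 genes, chosen by symbol from the 37620 Ensembl genes of the count table. They are the 5 lysyl oxidases Lox, Loxl1, Loxl2, Loxl3 and Loxl4, the 3 lysyl hydroxylases Plod1, Plod2 and Plod3, and the prolyl 4-hydroxylase alpha subunits P4ha1 and P4ha2. RNA was sequenced from 4 liver samples of the group named H-TBA, whose total bile acids were high, and from 3 of the group named L-TBA, whose total bile acids were low. Both groups shared the strain, the diet and its duration, and the series has no group on another diet. The labels give no sex or age, and do not say that each library came from a separate mouse. The p-values therefore measure the spread between these libraries, which may be technical.

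Collagen is modified inside the cell before it is secreted. Prolyl 4-hydroxylases, whose alpha subunits carry the catalytic site, hydroxylate prolines that hold the triple helix together. Lysyl hydroxylases hydroxylate lysines, which can then carry sugars and form more stable cross-links. Outside the cell, the copper-dependent lysyl oxidases oxidise lysines and hydroxylysines of collagen and lysines of elastin, and the aldehydes so formed join neighbouring molecules. In injured liver these enzymes are made largely by stellate cells and portal fibroblasts, and cross-linked scar is known to be stiffer and slower to resolve.

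Livers of the H-TBA group carried more Loxl1 and Plod2 transcript and less Plod1 transcript than livers of the L-TBA group. Loxl1 was 2.85-fold and Plod2 2.76-fold higher, and Plod1 reached 0.702 of its L-TBA level. The other 7 enzymes did not pass the test. All 10 passed the filter on low counts, and 2 rose and 1 fell at an adjusted p of 0.05 by edgeR's quasi-likelihood test with Benjamini-Hochberg adjustment over all 15249 genes tested. Of all genes tested, 13.1% rose and 10.7% fell, so the number of enzymes that changed does not by itself set the group apart. Their median log2 fold change was 0.21, against 0.01 for all genes tested. In bulk liver, more cells of a type and more transcript per cell cannot be told apart.

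**Figure D1:**
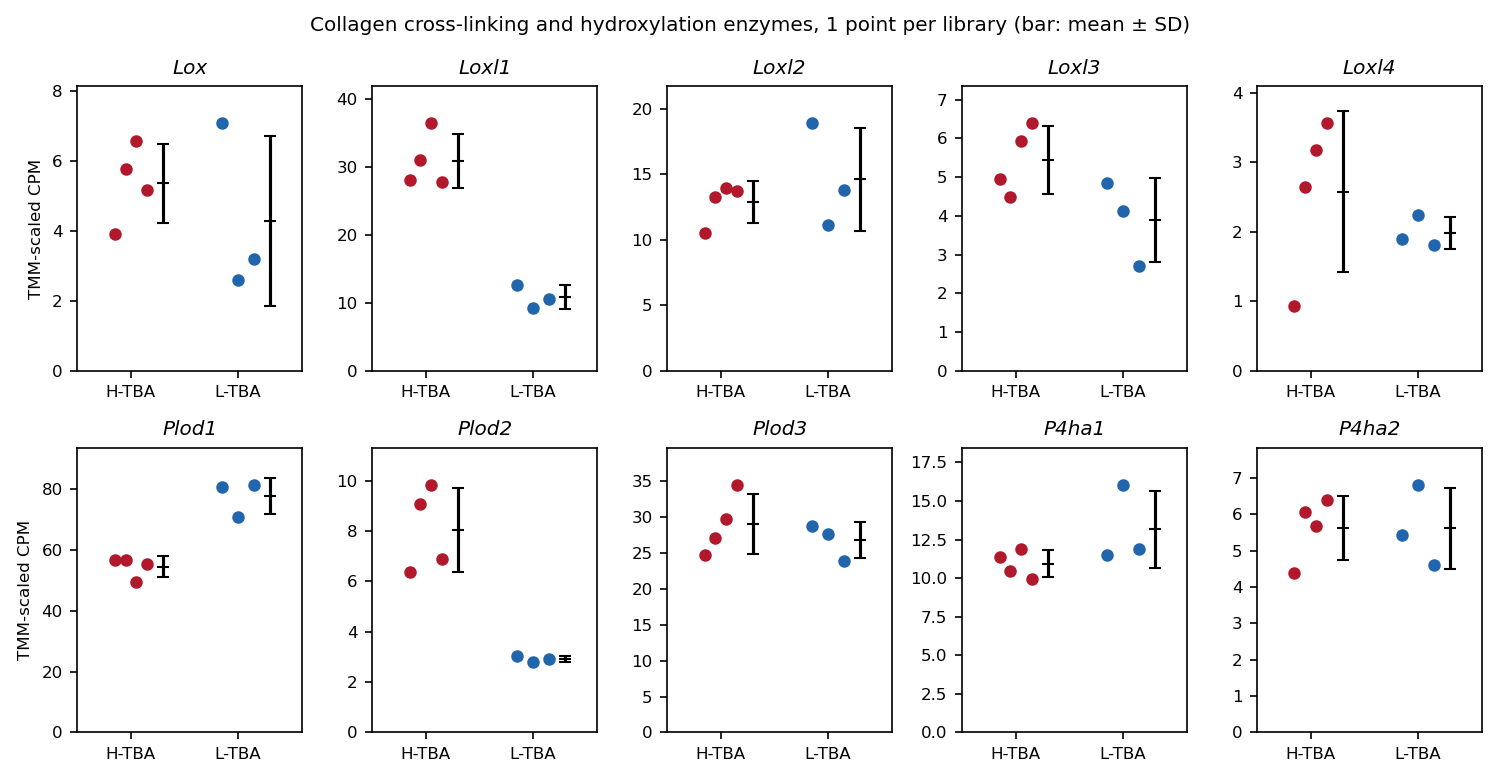
Level of each enzyme gene as TMM-scaled CPM (counts relative to the total of the library) on the vertical axis, with 1 point per library, H-TBA in red and L-TBA in blue, and bars for the mean ± SD. The points of Loxl1 and Plod2 lie higher in all 4 H-TBA libraries than in any L-TBA library, and those of Plod1 lie lower.

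Across the series, total counts ran from 9996990 to 12152613 per library. Along the main axis of variation (64.7% of the variance) H-TBA 1 lay nearest to the L-TBA libraries. Bile duct markers, which stand for cholangiocytes, were higher throughout: 15 of the 15 tested rose, with a summed level of 1168 to 2243 CPM in H-TBA and 527 to 827 CPM in L-TBA, and none of these markers was at 0. Stellate cell and portal fibroblast markers had 10 higher and 3 lower of 19 tested, with a summed level of 699 to 839 CPM in H-TBA and 485 to 702 CPM in L-TBA. Vascular endothelial markers had 4 higher and 1 lower of 10. Sinusoidal endothelial markers had 0 higher and 7 lower of 9, and macrophage markers 1 higher and 2 lower of 12. The sinusoidal count was 4 when H-TBA 3, L-TBA 1 or L-TBA 3 was left out, the macrophage count of lower genes 4 and 1 when L-TBA 2 and L-TBA 3 were left out, and the vascular count of lower genes 2 when H-TBA 1 or L-TBA 2 was left out. Hepatocyte markers were summed at 66420 to 73920 CPM in H-TBA and 69550 to 77850 CPM in L-TBA, so both groups carry the defining transcripts of liver. Beside these counts, 13.1% of all genes tested rose and 10.7% fell. What part the shifts of the cell type markers have in the changes of the enzymes was not tested.

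Loxl1 (ENSMUSG00000032334, chromosome 9) encodes the lysyl oxidase best known for elastic fibres, where it binds fibulin-5 and tropoelastin. Its level was 28.1, 31.1, 36.4 and 27.8 CPM in H-TBA 1 to 4, against 12.7, 9.24 and 10.5 CPM in L-TBA 1 to 3. Every H-TBA library thus stood above every L-TBA library, a pattern that 17.2% of all genes tested show. The log2 fold change was 1.51 ± 0.14 (SE) with an adjusted p of 9.57e-05 (edgeR), and 3.66% of the genes tested had a larger one. Leaving out any 1 library, or changing the scaling, filter or tool, kept the log2 fold change between 1.40 and 1.67 and the adjusted p at or under 0.00371. The summed bile duct markers were at 1168, 1933, 2243 and 1897 CPM in H-TBA 1 to 4, against 827, 693 and 527 CPM in L-TBA 1 to 3. H-TBA 3 was the highest and H-TBA 2 the second highest library in both Loxl1 and these markers. The lowest H-TBA library differed, being H-TBA 4 for Loxl1 and H-TBA 1 for the markers. Most of the marker sum was Spp1, at 786, 1325, 1451 and 1218 CPM in H-TBA 1 to 4. A link between Loxl1 and the markers was not tested.

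Lox (ENSMUSG00000024529), the founding member, cross-links both collagen and elastin. It was measured at 3.92, 5.77, 6.59 and 5.18 CPM in H-TBA and at 7.08, 2.60 and 3.21 CPM in L-TBA. The groups overlapped because L-TBA 1 held the highest value of all 7 libraries. The log2 fold change was 0.31 ± 0.32 (SE) with an adjusted p of 0.519 (edgeR). Without L-TBA replicate 1 it was 0.89 and passed, with an adjusted p of 0.044, which made 3 enzymes higher. Over all alternatives its adjusted p ran from 0.044 to 0.942.

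Loxl2 (ENSMUSG00000034205, chromosome 14) acts on fibrillar collagens and on collagen IV of basement membranes, and has been pursued as an antifibrotic target. It stood at 10.6, 13.3, 13.99 and 13.8 CPM in H-TBA, against 18.9, 11.1 and 13.8 CPM in L-TBA. Here too L-TBA 1 was the highest library, and the others overlapped. The log2 fold change was -0.18 ± 0.18 (SE; adjusted p = 0.495, edgeR), and it was 0.05 without L-TBA replicate 1. In the GENCODE models, 5.57% of the Loxl2 exon length lies over exons of Gm27177 on the other strand, which was not among the genes tested.

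Loxl3 and Loxl4, which like Loxl2 carry scavenger receptor domains, were present at low levels. Loxl3 (ENSMUSG00000000693, chromosome 6) averaged 5.44 ± 0.872 CPM in H-TBA (SD, n = 4) and 3.89 ± 1.09 CPM in L-TBA (SD, n = 3), and did not pass at a log2 fold change of 0.48 ± 0.22 (SE; adjusted p = 0.143, edgeR). Of its exon length, 11.6% lies over exons of Htra2 on the other strand in the GENCODE models. The strand setting of the counting is not given in the sources used here, so reads of the overlap cannot be told apart, and Htra2 was itself at 17.6 ± 1.78 CPM in H-TBA and 18.1 ± 2.69 CPM in L-TBA. Loxl4 (ENSMUSG00000025185, chromosome 19) was the least abundant enzyme, with 10 to 44 raw counts in H-TBA and 18 to 25 in L-TBA. It was at 0.934 CPM in H-TBA 1 and at 2.64, 3.17 and 3.56 CPM in H-TBA 2 to 4, against 1.90, 2.24 and 1.80 CPM in L-TBA. H-TBA 1 was thus the lowest of all 7 libraries and the other H-TBA libraries the highest. Its log2 fold change was 0.39 ± 0.37 (SE; adjusted p = 0.489, edgeR).

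The make-up of the family differed between the groups. Levels of different genes were set side by side as CPM per kb of exon. The exon lengths merge all GENCODE isoforms of a gene and may differ from the transcripts expressed. Shares and ranks between genes depend on these lengths. On that scale the 5 lysyl oxidases summed to 12.6, 14.7, 17.1 and 14.3 CPM per kb in H-TBA and to 10.3, 6.84 and 7.43 CPM per kb in L-TBA. Loxl1 made up 63.9 ± 3.61% of the sum in H-TBA (SD, n = 4) and 40.4 ± 2.88% in L-TBA (SD, n = 3). Loxl2, next in order, made up 16.3 ± 1.20% in H-TBA and 32.8 ± 2.33% in L-TBA. The log2 ratio of Loxl1 to Loxl2 counts within a library was 1.41, 1.23, 1.38 and 1.02 in H-TBA and -0.58, -0.27 and -0.39 in L-TBA. Loxl1 counts thus exceeded those of Loxl2 in every H-TBA library and in no L-TBA library. These counts are not scaled by exon length, which is 3297 bp for Loxl1 and 5405 bp for Loxl2. Per kb of exon, Loxl1 exceeded Loxl2 in every L-TBA library too. It was at 3.85, 2.80 and 3.19 CPM per kb in L-TBA 1 to 3, against 3.50, 2.06 and 2.56 for Loxl2.

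**Figure D2:**
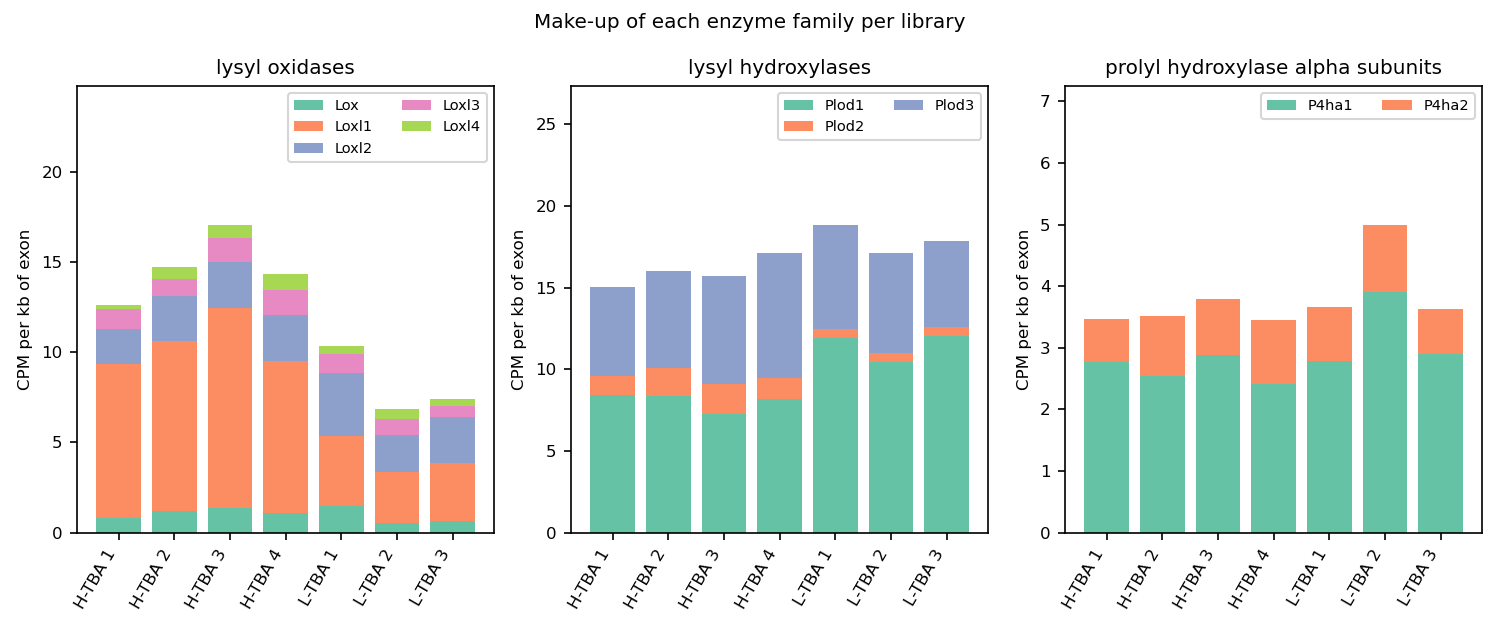
Stacked bars give the level of each enzyme in CPM per kb of exon (vertical axis) in each library, H-TBA 1 to 4 left of L-TBA 1 to 3, for lysyl oxidases, lysyl hydroxylases and prolyl hydroxylase alpha subunits. Loxl1 fills 59.0% to 67.7% of the lysyl oxidase bar in H-TBA and 37.3% to 42.9% in L-TBA, and Plod2 fills 7.46% to 11.6% of the lysyl hydroxylase bar in H-TBA and 2.97% to 3.02% in L-TBA.

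Among the lysyl hydroxylases, Plod2 and Plod1 changed in opposite directions. Plod2 (ENSMUSG00000032374, chromosome 9) encodes lysyl hydroxylase 2, which hydroxylates the telopeptide lysines at the ends of the collagen molecule and so sets the type of cross-link found in fibrotic tissue. It was measured at 6.35, 9.09, 9.84 and 6.88 CPM in H-TBA, against 3.02, 2.78 and 2.91 CPM in L-TBA. The L-TBA libraries lay close together, and the lowest H-TBA library was above all of them. The log2 fold change was 1.47 ± 0.21 (SE) with an adjusted p of 0.000707 (edgeR), and it kept to between 1.35 and 1.63, with an adjusted p at or under 0.00932, over the alternatives. Raw counts ran from 68 to 121 in H-TBA and from 29 to 35 in L-TBA. Of the Plod2 exon length, 6.42% lies over exons of Gm38391 on the other strand, which was not among the genes tested. As for Loxl3, reads of the overlap cannot be told apart.

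Plod1 (ENSMUSG00000019055, chromosome 4) encodes lysyl hydroxylase 1, which hydroxylates lysines within the triple helix. It was at 56.9, 56.7, 49.4 and 55.3 CPM in H-TBA, against 80.8, 70.9 and 81.5 CPM in L-TBA. All H-TBA libraries lay below all L-TBA libraries, as in 16.3% of all genes tested. The log2 fold change was -0.51 ± 0.085 (SE) with an adjusted p of 0.00172 (edgeR). It ran from -0.57 to -0.36 over the alternatives and passed in all of them. Its promoter sequence is shown as that of the only enzyme that changed for which the RefSeq promoter table (GRCm38.p6) had an entry. Entries were found for 5 of the 10 enzymes (Loxl4, Plod1, Plod3, P4ha1 and P4ha2). Capitals mark GCGTG or ACGTG on either strand, core letters of hypoxia response elements, in the stretch chr4:147936727-147937026 on the minus strand, 300 bases around the gene start.
Plod1: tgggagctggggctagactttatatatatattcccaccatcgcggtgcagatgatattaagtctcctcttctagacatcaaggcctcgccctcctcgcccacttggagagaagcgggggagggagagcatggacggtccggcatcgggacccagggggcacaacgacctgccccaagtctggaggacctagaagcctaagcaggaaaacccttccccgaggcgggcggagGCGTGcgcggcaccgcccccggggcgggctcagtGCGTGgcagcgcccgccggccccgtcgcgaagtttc
It held GCGTG at 2 places and no ACGTG. Of 32851 promoters in the table, 32.4% hold GCGTG and 19.6% hold ACGTG. A match is a description of letters and not a site of binding.

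Plod3 (ENSMUSG00000004846, chromosome 5) encodes lysyl hydroxylase 3, which also adds sugars to hydroxylysine. It was at 24.8, 27.1, 29.8 and 34.6 CPM in H-TBA and at 28.8, 27.6 and 23.9 CPM in L-TBA, with overlapping groups. The log2 fold change was 0.12 ± 0.12 (SE; adjusted p = 0.521, edgeR). Of its exon length, 11.7% lies over exons of Znhit1 on the other strand, and Znhit1 was at 25.2 ± 0.581 CPM in H-TBA and 26.6 ± 4.30 CPM in L-TBA.

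While Plod1 and Plod2 changed in opposite directions, the sum of the family was lower in H-TBA. The 3 genes summed to 15.06 to 17.1 CPM per kb in H-TBA and to 17.11 to 18.86 CPM per kb in L-TBA, so the groups were barely apart. Plod2 made up 9.35 ± 2.03% of that sum in H-TBA (SD, n = 4) and 3.0 ± 0.024% in L-TBA (SD, n = 3), and Plod1 50.6 ± 4.27% in H-TBA and 64.0 ± 3.12% in L-TBA. The Plod2 shares in L-TBA rest on 35, 31 and 29 raw counts, so their small SD does not measure their precision. The log2 ratio of Plod2 to Plod1 counts was 1.96 higher in H-TBA, at -2.79 ± 0.38 in H-TBA and -4.74 ± 0.07 in L-TBA.

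Ratios within a library were tested for 8 pairs of enzymes of the same family by an exact two-sided permutation test, whose smallest p with 4 against 3 libraries is 0.0571. In 7 pairs the groups did not overlap, and each reached that smallest value (adjusted p = 0.0653 over the 8 pairs). These were Loxl1 over each of the other 4 lysyl oxidases, Plod2 over Plod1 and over Plod3, and Plod3 over Plod1. Each of these pairs holds Loxl1, Plod1 or Plod2, which were already called on their own. The ratios therefore largely restate those calls and are not separate support. The exact design cannot pass 0.05, so these differences stand as sizes: 1.08 on the log2 scale for Loxl1 over Lox, 1.0 over Loxl3, 1.30 over Loxl4 and 1.67 over Loxl2. For Plod2 the difference was 1.34 over Plod3, and for Plod3 over Plod1 it was 0.62.

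The prolyl 4-hydroxylase subunits did not pass. P4ha1 (ENSMUSG00000019916, chromosome 10), the main alpha subunit in most cells, was at 11.4, 10.5, 11.9 and 9.95 CPM in H-TBA, against 11.5, 16.1 and 11.9 CPM in L-TBA, where L-TBA 2 stood above the rest. Its log2 fold change was -0.27 ± 0.14 (SE; adjusted p = 0.204, edgeR). P4ha2 (ENSMUSG00000018906, chromosome 11), the alpha subunit typical of skeletal and fibrotic tissue, was at 4.39, 6.06, 5.69 and 6.39 CPM in H-TBA, against 5.44, 6.82 and 4.61 CPM in L-TBA. Its log2 fold change was 0.00 ± 0.19 (SE; adjusted p = 0.996, edgeR), and its sign was not stable over the alternatives, at -0.12 to 0.16. P4ha1 made up 74.6 ± 4.18% of the CPM per kb of the pair in H-TBA and 78.0 ± 1.75% in L-TBA, and the exact permutation test of their log2 ratio gave p = 0.286 (two-sided; adjusted p = 0.286).

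P4ha1, P4ha2, Plod1, Plod2, Lox and Loxl2 are known as genes that hypoxia-inducible factors can induce. The P4ha2 promoter is shown because, with P4ha1 and Plod3, it holds the ACGTG core, here at 2 places together with GCGTG at 2, while the gene itself did not pass the test. Capitals have the same meaning as for Plod1, in the stretch chr11:54100674-54100973 on the plus strand (RefSeq, GRCm38.p6).
P4ha2: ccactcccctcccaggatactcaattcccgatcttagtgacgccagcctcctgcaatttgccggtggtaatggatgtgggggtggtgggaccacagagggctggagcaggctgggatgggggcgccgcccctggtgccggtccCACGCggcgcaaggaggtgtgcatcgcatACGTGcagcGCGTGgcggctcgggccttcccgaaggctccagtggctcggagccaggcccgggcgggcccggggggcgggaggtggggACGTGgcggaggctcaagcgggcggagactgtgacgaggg
In the measured RNA, 20 other targets of hypoxia-inducible factors had 4 genes higher and 3 lower, with a median log2 fold change of 0.02. Of all genes tested, 13.1% rose and 10.7% fell, so these numbers do not set the list apart. Ndrg1, a stress-responsive gene, rose by 1.04 ± 0.14 (SE; adjusted p = 0.000672, edgeR), and Ddit4, an inhibitor of mTORC1, by 0.95 ± 0.11. Hk2, a hexokinase, fell by 1.73 ± 0.19, and Pdk1, a kinase that restrains pyruvate dehydrogenase, fell by 0.84 ± 0.14.

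**Figure D3:**
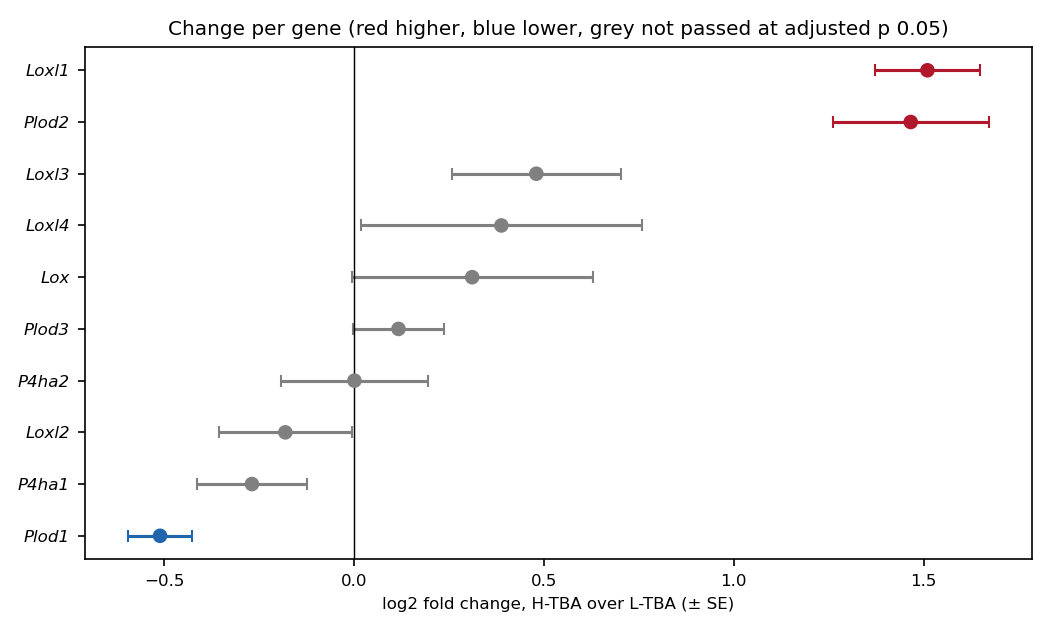
Log2 fold change of each enzyme gene, H-TBA over L-TBA, on the horizontal axis with its standard error, ordered by size. Loxl1 at 1.51 and Plod2 at 1.47 (red) lie apart from the other 8, Plod1 at -0.51 (blue) is at the other end, and the 7 grey genes did not pass.

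Set side by side per kb of exon, Loxl1 was the most abundant of the 10 in H-TBA, at 9.36 ± 1.21 CPM per kb (SD, n = 4). Its lowest library there, at 8.44, was barely above the highest for Plod1, at 8.41. This rank rests on the exon lengths used, 3297 bp for Loxl1 and 6765 bp for Plod1. In CPM, Plod1 at 54.6 exceeded Loxl1 at 30.9 in H-TBA. In H-TBA Plod1 at 8.07 ± 0.523 and Plod3 at 6.43 ± 0.931 CPM per kb overlapped. P4ha1, Loxl2, Plod2, Loxl3, Lox, P4ha2 and Loxl4 followed there at means of 2.65 down to 0.611 CPM per kb, and each overlapped with the next except Loxl2 and Plod2. In L-TBA Plod1 came first at 11.5 ± 0.877 CPM per kb (SD, n = 3) and Plod3 second at 5.93 ± 0.559, and their libraries did not overlap. Loxl1 at 3.28 ± 0.530 and P4ha1 at 3.20 ± 0.614 CPM per kb overlapped in L-TBA, as did P4ha1 and Loxl2 and also P4ha2, Lox and Loxl3 at 0.901, 0.899 and 0.845. Plod2 and Loxl4 were last in L-TBA, at 0.539 and 0.471 CPM per kb. Compared over the 7 libraries as log2 CPM centred per gene, the closest profile to Loxl1 among the enzymes was that of Plod2 and the reverse also held, at a root-mean-square difference of 0.15. The profile farthest from Loxl1 was that of Plod1, at 1.01. Both measures include the difference between the groups.

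The enzymes were next read against their substrates. Of 17 collagen and elastin genes, 7 rose and 1 fell, against 13.1% and 10.7% of all genes tested. Their median log2 fold change was 0.37. Leaving out L-TBA 1 gave 12 higher genes, leaving out L-TBA 2 or L-TBA 3 gave 3, and leaving out H-TBA 3 gave 4. The count of lower genes was 2 when L-TBA 2 was left out. Col1a1, the main fibrillar collagen, was at 96.9, 114, 155 and 130.3 CPM in H-TBA and at 190.1, 77.1 and 78.1 CPM in L-TBA, where L-TBA 1 exceeded every other library. It did not pass, at 0.11 ± 0.28 on the log2 scale (SE; adjusted p = 0.823, edgeR), and passed at 0.67 without L-TBA replicate 1 (adjusted p = 0.0208). Its sign turned when H-TBA 3, L-TBA 2 or L-TBA 3 was left out. Col1a2 and Col3a1, its fibril partners, were at 0.20 ± 0.22 and 0.37 ± 0.27 on the log2 scale and did not pass, but both passed without L-TBA replicate 1 (adjusted p = 0.0125 and 0.0211, edgeR).

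Eln, which encodes the elastin precursor that Loxl1 cross-links, was at 14.9, 18.8, 24.2 and 19.98 CPM in H-TBA, against 10.5, 6.19 and 8.92 CPM in L-TBA. It rose by 1.19 ± 0.20 on the log2 scale (SE; adjusted p = 0.00174, edgeR), and the groups did not overlap. Col6a1 and Col6a2, chains of the microfibrillar collagen VI, rose by 0.88 ± 0.13 and 1.06 ± 0.16. Col12a1, a fibril-associated collagen, fell by 0.91 ± 0.18.

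Relative to fibrillar collagen within each library, Lox varied little, whereas Loxl1 and Plod2 differed between the groups. The log2 ratio of Lox to Col3a1 lay between -5.49 and -5.26 in all 7 libraries, a range of 0.23. That of Lox to Col1a1 lay between -4.89 and -4.30, a range of 0.587. The range for Col3a1 was the smallest among the ratios of all enzymes to either collagen. Lox had only 29 to 82 raw counts per library, so this narrow range cannot be read as a fixed ratio. L-TBA 1, which was high in Lox, was also high in Col1a1 and Col3a1. The log2 ratio of Loxl1 to Col3a1 was -2.48, -3.03, -2.90 and -3.06 in H-TBA, against -4.42, -3.64 and -3.77 in L-TBA, so the groups did not overlap. The log2 ratio of Plod2 to Col3a1 averaged -4.82 ± 0.19 in H-TBA (SD, n = 4) and -5.83 ± 0.59 in L-TBA (SD, n = 3), and again the groups did not overlap. For Loxl2 the ratio to Col3a1 was lower in H-TBA, at -4.13 ± 0.18 in H-TBA and -3.53 ± 0.27 in L-TBA, while its ratio to Col1a1 overlapped. The groups were barely apart in the ratio to Col3a1, with H-TBA 1 at -3.89 and L-TBA 1 at -3.84. Neither Loxl2 nor Col3a1 passed the test on its own. These ratios are descriptions and carry no test.

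**Figure D4:**
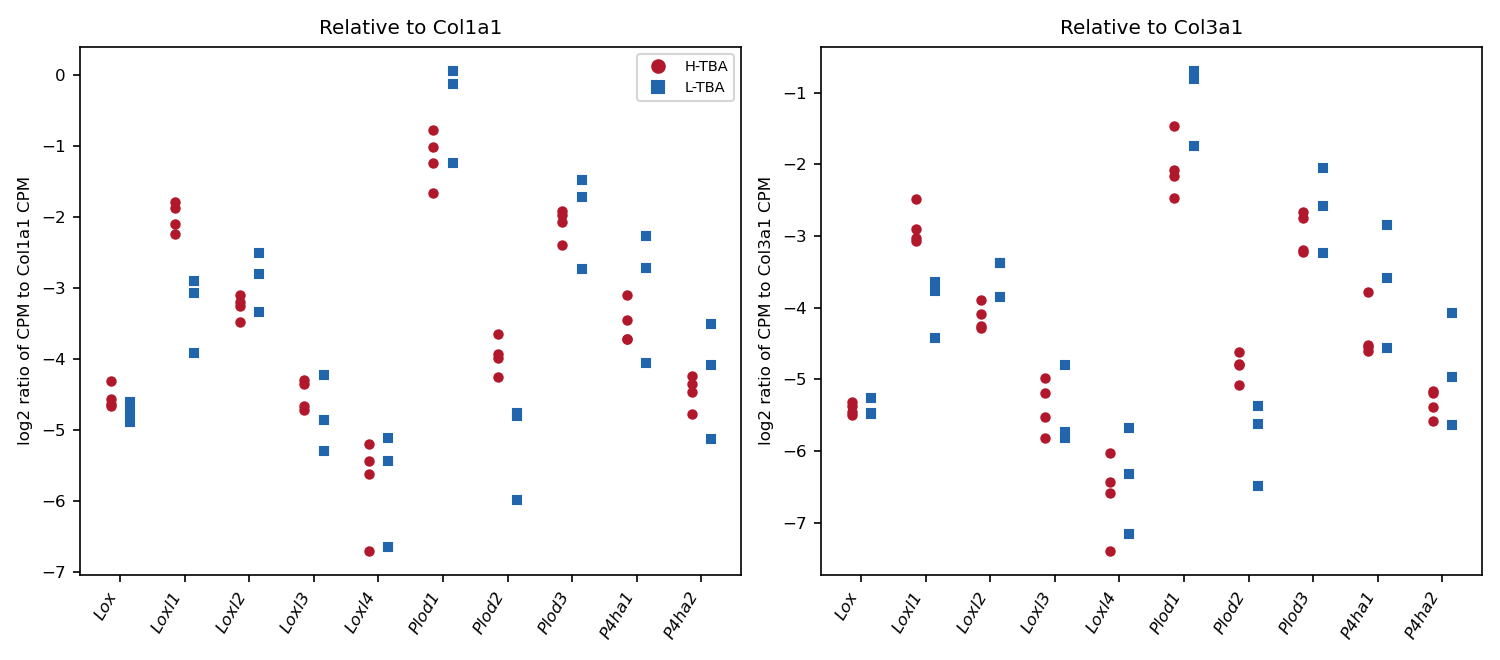
Log2 ratio of the CPM of each enzyme to the CPM of Col1a1 (left) and Col3a1 (right) on the vertical axis, with 1 point per library, H-TBA as red circles and L-TBA as blue squares. The points of Lox lie within 0.23 of each other in the panel for Col3a1, while those of Loxl1 and Plod2 are higher in H-TBA than in L-TBA in both panels.

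Genes that work beside the intracellular hydroxylases moved both ways. Of 15 tested genes of collagen hydroxylation, folding and glycosylation, 4 rose and 3 fell, against 13.1% and 10.7% of all genes tested. Their median log2 fold change was 0.17. With library totals in place of TMM the numbers were 7 higher and 1 lower. Fkbp10, a prolyl isomerase that assists lysyl hydroxylase 2, rose by 1.24 ± 0.21 on the log2 scale (SE; adjusted p = 0.00173, edgeR) to 9.79 ± 1.997 CPM in H-TBA, against 4.12 ± 0.677 CPM in L-TBA. P3h3 and P3h4, which form a complex with lysyl hydroxylase 1, rose by 0.86 ± 0.16 and 1.12 ± 0.21, whereas Plod1 itself fell. Serpinh1, the collagen chaperone HSP47, was at 36.5 ± 7.05 CPM in H-TBA and 24.2 ± 8.20 CPM in L-TBA and did not pass (adjusted p = 0.06, edgeR). It passed as higher when H-TBA 1 or L-TBA 1 was left out (adjusted p = 0.0128 and 0.00901) and with library totals, DESeq2, limma-voom and no filter, in a range from 0.00901 to 0.207.

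P4hb, protein disulphide isomerase and the beta subunit shared by P4ha1 and P4ha2, was at 968 ± 82.3 CPM in H-TBA and 1245 ± 61.6 CPM in L-TBA. It passed as lower at -0.36 ± 0.10 on the log2 scale (SE; adjusted p = 0.0266, edgeR), a call lost when any of H-TBA 2, H-TBA 3, H-TBA 4, L-TBA 1 and L-TBA 2 was left out (adjusted p = 0.0656, 0.0576, 0.0747, 0.0898 and 0.0937) and with library totals (0.083). The alternatives gave adjusted p values of 0.000767 to 0.142. Pdia3, another disulphide isomerase of the endoplasmic reticulum, fell by 0.51 ± 0.11. Both are abundant in hepatocytes.

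Genes that act outside the cell around the lysyl oxidases came next. Of 18 tested genes of elastic fibre assembly and of lysyl oxidase partners, 14 rose and 1 fell, where 13.1% of all genes tested rose and 10.7% fell. The median log2 fold change of the list was 0.82, against 0.01 for all genes tested. Fbln1, a fibulin of elastic fibres and basement membranes, was at 12.3 ± 2.06 CPM in H-TBA and 2.15 ± 0.402 CPM in L-TBA (log2 fold change 2.50 ± 0.20, adjusted p = 6.8e-05, edgeR). Ltbp3 and Ltbp2, members of the latent TGF-beta binding protein family, rose by 1.63 ± 0.17 and 2.30 ± 0.36, and the microfibril gene Fbn2 rose by 2.62 ± 0.43. Fbln5 and Efemp2, the fibulins known to bind Loxl1 and Lox, were named for that role after their values were seen, and they rose by 0.65 ± 0.16 and 0.82 ± 0.20. Fn1, fibronectin, to which Lox binds and which hepatocytes also secrete, fell by 0.46 ± 0.11, likewise named after its value was seen.

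Of 10 tested genes of procollagen processing and other cross-linking, 4 rose and 1 fell, against 13.1% and 10.7% of all genes tested. Only 2 were higher when any of H-TBA 2, H-TBA 3, L-TBA 2 and L-TBA 3 was left out. Pxdn, a peroxidase that cross-links collagen IV, rose by 0.89 ± 0.18 on the log2 scale (SE; adjusted p = 0.00505, edgeR). Adamts2, which removes the amino-terminal propeptide of procollagen, passed at 0.48 ± 0.14 (adjusted p = 0.0263, edgeR), and its call was lost when H-TBA 2, H-TBA 3, L-TBA 2 or L-TBA 3 was left out, in a range from 0.0052 to 0.103. Ctsk, which rose by 1.17 ± 0.18, encodes a collagen-degrading protease, and Meltf, which fell by 2.65 ± 0.48, encodes an iron-binding surface protein, so neither performs the processing that the list is named for.

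TGF-beta is a known inducer of lysyl oxidases and of Plod2. Of 12 tested TGF-beta target genes, 7 rose and 1 fell, against 13.1% and 10.7% of all genes tested. Their median log2 fold change was 0.67. The gene that fell was Bhlhe40, which also responds to hypoxia, and the count of lower genes was 0 when any of H-TBA 2, H-TBA 3, H-TBA 4, L-TBA 1 and L-TBA 2 was left out, and with library totals or the robust fit, and 2 when L-TBA 3 was left out. Ccn2, connective tissue growth factor, was at 44.1 ± 13.1 CPM in H-TBA and 18.9 ± 2.14 CPM in L-TBA (log2 fold change 1.23 ± 0.20, adjusted p = 0.00171, edgeR). Itgb6, the epithelial integrin subunit that activates latent TGF-beta, rose by 2.21 ± 0.35, and Tgfb1i1, a focal adhesion protein, rose by 1.29 ± 0.24. Ltbp2 belongs to this list as well as to that of elastic fibres.

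Markers of stellate cells and portal fibroblasts did not move as a block. Acta2, the smooth muscle actin of myofibroblasts, was at 16.2 CPM in H-TBA 1 and at 4.11, 3.66 and 2.43 CPM in H-TBA 2 to 4, against 6.48, 3.68 and 3.10 CPM in L-TBA. It did not pass (0.55 ± 0.57 on the log2 scale, adjusted p = 0.532, edgeR) and was at -0.40 without H-TBA replicate 1. Pdgfra, the platelet-derived growth factor receptor of fibroblasts, rose by 1.40 ± 0.12, and Cd34, carried by portal fibroblasts and vascular endothelium, rose by 1.82 ± 0.17. Dpt, the fibroblast matrix protein dermatopontin, rose by 1.09 ± 0.13. Colec10, a gene of quiescent stellate cells, fell by 4.26 ± 0.41. Krt19, a keratin of bile duct cells, was at 49.6 ± 17.9 CPM in H-TBA and 6.04 ± 1.81 CPM in L-TBA and rose by 3.03 ± 0.32 (adjusted p = 0.000208, edgeR). In H-TBA 1, Krt19 was at 25.3 CPM and Plod2 at 6.35 CPM, each the lowest of the 4 H-TBA libraries. In H-TBA 4, however, Krt19 at 55.2 CPM was the second highest of them and Plod2 at 6.88 CPM the second lowest.

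**Figure D5:**
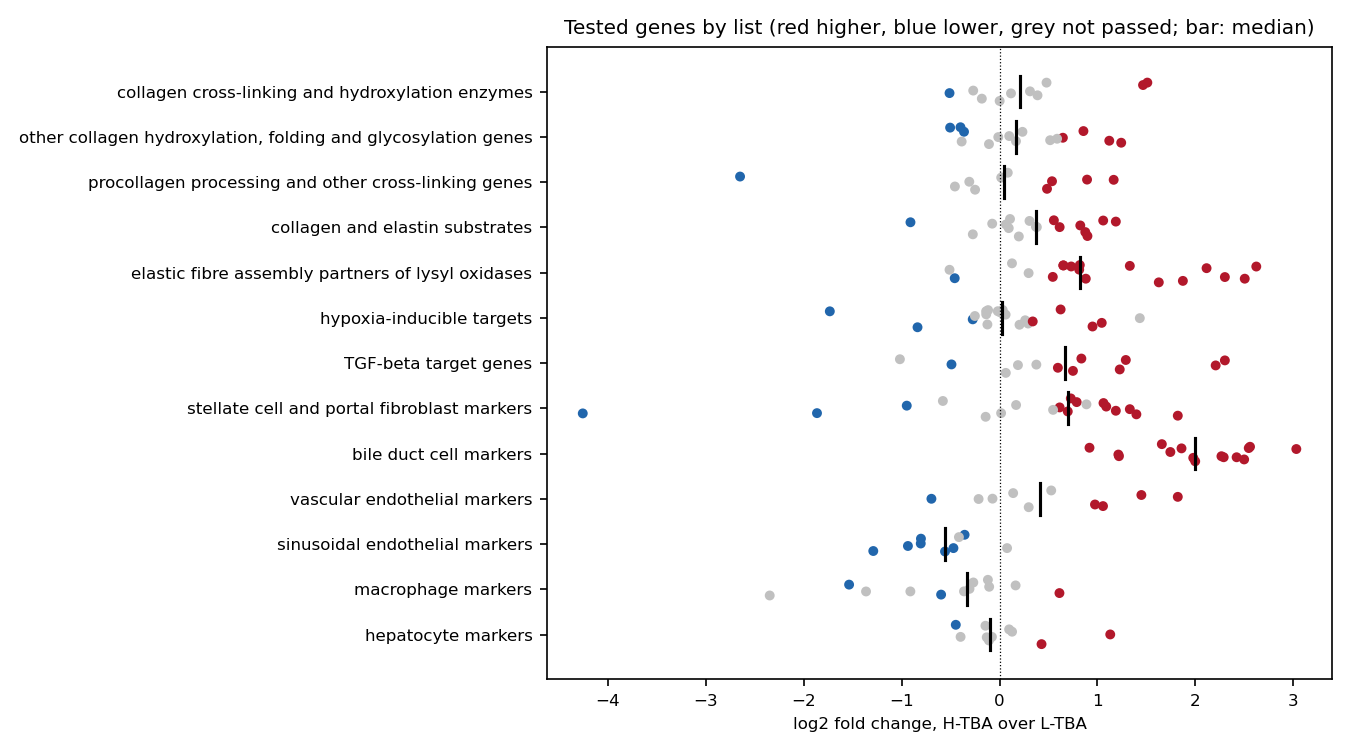
Log2 fold change of each tested gene, H-TBA over L-TBA, on the horizontal axis, with 1 row per list, red for higher, blue for lower and grey for not passed, and a black bar at the median of the list. The enzymes of collagen cross-linking and hydroxylation have a median of 0.21, the genes of elastic fibre assembly 0.82 and the bile duct markers 1.999.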

How the data were processed

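Per the labels, RNA came from snap-frozen tissue by Trizol extraction, and library preparation followed Illumina. The deposited values are the authors' raw counts for each Ensembl gene, not normalized. Build mm9, TopHat2 2.0.11, CASAVA and DESeq2 1.18.1 stand in the submitters' processing notes, with no role for each. How counting was done (tool, strand, annotation) is not given in the sources used here. Symbols, exon lengths and exon overlaps came from GENCODE M21 (GRCm38), whose coordinates were not joined to the counts; 32897 of 37620 identifiers had a symbol.

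Genes were kept by filterByExpr (minimum count 10, minimum total 15), scaled by TMM and tested with the quasi-likelihood test of edgeR 4.0.16 (R 4.3.3). The model held only the group, and calls were made at a Benjamini-Hochberg adjusted p of 0.05. A positive log2 fold change means higher in H-TBA. Standard errors came from the fold change and F statistic. Alternatives used DESeq2 1.42.0, limma-voom (limma 3.58.1), other scalings, filters and thresholds, a robust fit, the replicate block and leaving out each library. An exon length offset was added after the data were seen. Scripts were tested on simulated data. Libraries of a group differed beyond counting noise (chi-square divided by its degrees of freedom at least 5.64), so none was taken for a library deposited again. This does not show that they came from separate mice. Figures used matplotlib 3.10.9.

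The enzymes, the lists and the tests were chosen with earlier results of these data known. The named genes are all 10 enzymes, up to 4 per other list with the smallest adjusted p among those that passed, and Col1a1, Col1a2, Col3a1, Eln, P4hb, Serpinh1, Acta2 and Krt19. Of the genes so selected in the lists of cell type markers, a few are named.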

Additional observations from a re-analysis of the deposited data

Results flagged for a closer look

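In the H-TBA group, 60 genes named by the rule were examined for a library that stands far from the others, by its gap to the nearest library as a share of the whole range, with a threshold of 0.829 for 4 libraries. None of the 10 enzymes passed it. Chance alone gives about 1 in 20. Acta2 had a gap of 0.878 of the range in H-TBA 1, at 16.2 CPM, and Fkbp10 a gap of 0.875 in H-TBA 1, at 6.82 CPM where the others lay between 10.5 and 10.98 CPM. Col6a2 had a gap of 0.885 in H-TBA 3, at 46.1 CPM, and Clec4f, a Kupffer cell gene, a gap of 0.956 in H-TBA 3, at 16.8 CPM where the others lay between 28.2 and 28.7 CPM.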

How the results depend on the processing

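Loxl1, Plod2 and Plod1 kept their direction and their call in all 19 alternatives. Over the 10 enzymes, 178 of 189 values kept both, 0 lost a call, 1 gained it (Lox without L-TBA replicate 1) and 10 changed sign, all for genes that did not pass. For P4ha2 these were -0.006 with DESeq2 size factors, -0.01 with DESeq2, -0.06 with the replicate block, -0.031 with the exon length offset and -0.12 to 0.16 on leaving out 1 library. Loxl2 ran from -0.35 to 0.049 on leaving out 1 library. Among 50 other named genes, 27 of 949 values lost a call, 10 gained one and 6 changed sign: Acta2 was at -0.16 with limma-voom and at -0.40 to 0.93 on leaving out 1 library, Col1a1 at -0.12 to 0.67 and Col1a2 at -0.011 to 0.62. The number of genes called was 2003 higher and 1635 lower in the main comparison, 3117 and 832 with library totals, which moved the median log2 fold change to 0.16, 1166 and 754 with the replicate block, and 1126 and 749 at an adjusted p of 0.01. Leaving out 1 library gave 1470 to 2429 higher and 1035 to 2123 lower. The cause was not tested. The enzymes stayed at 2 higher and 1 lower, with 3 higher without L-TBA replicate 1. Same-numbered libraries of the groups did not deviate together (correlations of -0.103, -0.059 and -0.063), and no library correlated best with its own number, so the replicate number was not taken as a pairing. Loxl4 fell under the stricter filter and has no value there. With 10 to 44 counts per library it had the largest standard error of the enzymes.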
